A study of Mus musculus with 10 samples.

Results

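The genes described here are 10 members of the Notch signalling pathway, measured in the mouse dentate gyrus between 4 and 12 weeks of age. They are 3 receptors (Notch1, Notch2, Notch3), 3 ligands (Dll1, Dll3, Jag1), the receptor-modifying enzyme gene Lfng and 3 genes of the Hes family (Hes1, Hes5, Hes6). Each was taken from the probe set that the platform annotation assigns to that gene alone, and each had 1 such probe set, so the 10 genes are 10 of the 19752 genes measured. The animals were mice of a strain written C56BL/6J in the labels, with no treatment, and the 5 groups differ only in age, 4, 6, 8, 10 or 12 weeks, with 2 whole-transcript arrays each. Nothing in the labels ties an array to its own animal or pool. The p-values therefore rest on the scatter among these 10 arrays, and part of that scatter may be technical. Levels are on a log2 scale, on which 1 unit is a doubling.

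Array medians lay between 8.27 and 8.31, and correlations between arrays across genes lay between 0.994 and 0.998. Replicate 1 of 8 weeks correlated least with the rest (mean 0.995), and its values were the least spread. The array of 6 weeks replicate 1 had a Ttr level of 13.77, against 8.87 to 10.15 on the others; Ttr encodes transthyretin of the choroid plexus. The labels give the sex as female, but Xist lay between 5.41 and 6.02 on all arrays, while 3 genes of the Y chromosome were high, with means of 8.97 for Eif2s3y, 9.06 for Kdm5d and 9.23 for Uty. The granule cell markers fixed for checking the tissue were present, with list means between 11.42 and 11.57 on every array, among them the identity factor gene Prox1 at 12.34 and 12.37 at 4 weeks. As a reference for dim signal, the 95th percentile of 1207 olfactory, vomeronasal and trace amine receptor genes lay between 6.87 and 7.17 on the arrays. All 10 Notch pathway genes lay above it on all 10 arrays.

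Notch receptors sit in the membrane and are switched on by ligands of a neighbouring cell. Binding leads to cleavage of the receptor, first by an ADAM protease and then by gamma-secretase, and the freed intracellular domain enters the nucleus, where it joins the DNA-binding protein RBPJ and turns on Hes genes. Hes1 and Hes5 repress proneural genes, and in the dentate gyrus Notch signalling is known for holding radial glia-like stem cells in their undifferentiated state. Hes6 is a divergent relative that counteracts Hes1 and is expressed in cells on their way to becoming neurons.

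RBPJ binds DNA at sites with the core TGGGAA, so the promoter windows of the members were searched for it on both strands. RefSeq windows of 300 bases ran from 250 before to 50 after the annotated start (GRCm38.p6, the assembly of mm10). They were at hand for 9 of the 10 genes, with 2 starts for Dll1 and Hes6, 11 windows in all. Hes1 had no window, so its promoter was not searched. The core was found in the windows of 2 genes, Hes5 and Lfng, with 2 matches each; 25.6% of 32851 windows of the same length hold at least 1. The matching stretches are shown because Hes5 and Lfng are textbook targets of Notch, and both are among the members. In each 30-base stretch, written along the gene's strand, capitals mark the core, read as TGGGAA or as its reverse complement TTCCCA.
Hes5, first match, chr4:154960685-154960714, plus strand: agggcgagcgcgTTCCCAcagcccggacat
Hes5, second match, chr4:154960829-154960858, plus strand: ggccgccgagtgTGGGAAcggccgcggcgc
Lfng, first match, chr5:140607194-140607223, plus strand: ccagctgggtggTTCCCAgccccttgtccg
Lfng, second match, chr5:140607221-140607250, plus strand: ccgtatcccacgTGGGAAggagagatctcc
Counted from the start of transcription used for the window, the Hes5 matches begin at positions −226 and −82, and the Lfng matches at −135 and −108. The Hes5 window lies inside the annotated extent of the gene, which begins at base 154960626 of chromosome 4.

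Hes proteins bind sites of the form CACGNG, which were found on either strand in 7 of the 11 windows, from 6 genes, against 27.5% of all windows. The related N box, CACNAG, was found in 6 of the 11, against 42.5%. A site CACGAG counts for both. G and C made up 52.0% to 73.0% of the bases in these 11 windows, and the shares over all windows were not matched for this content. The 250 bases upstream of Jag1 and Lfng are shown because these genes had the highest and the lowest fitted change of the 10. Capitals mark CACGNG and the RBPJ core on either strand; in Lfng a CACGTG runs into the second RBPJ core and shares 2 bases with it. A match is a run of letters and says nothing on its own about binding.
Jag1, chr2:137116521-137116770, minus strand: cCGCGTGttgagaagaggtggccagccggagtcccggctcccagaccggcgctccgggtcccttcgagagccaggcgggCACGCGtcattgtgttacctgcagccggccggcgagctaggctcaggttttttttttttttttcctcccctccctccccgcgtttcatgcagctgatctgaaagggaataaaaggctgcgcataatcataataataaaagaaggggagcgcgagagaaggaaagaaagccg
Lfng, chr5:140607091-140607340, plus strand: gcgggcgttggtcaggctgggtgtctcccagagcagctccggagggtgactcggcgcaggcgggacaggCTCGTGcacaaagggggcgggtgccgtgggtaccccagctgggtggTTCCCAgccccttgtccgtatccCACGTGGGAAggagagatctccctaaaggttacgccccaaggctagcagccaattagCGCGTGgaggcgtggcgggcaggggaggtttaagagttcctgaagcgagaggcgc

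Between 4 and 12 weeks none of the 10 genes had a change past the threshold. A linear trend over age was fitted to every gene with limma, and its slope is given as the fitted log2 change over the 8 weeks, with its standard error (SE). At an adjusted p under 0.05 it called 0 of the 10, against 0.82% of all genes (162 of 19752); at an unadjusted p under 0.05 it held 1 of the 10, Jag1, against 11.7% of all genes. The changes ran from −0.17 for Lfng to 0.18 for Jag1, 4 of them above 0 and 6 below, with a median of −0.04, beside 0.00 over all genes. All 10 confidence intervals (95%) lay within 0.5 log2 units of 0, as did those of 94.1% of all genes. The widest bounds were 1.27-fold lower, for Lfng, and 1.27-fold higher, for Jag1. In simulated data with 19752 genes the trend recovered 2.99% of genes given a change of 0.2 log2 units, 52.2% at 0.4 and 90.9% at 0.8. A change of about the size fitted here was thus mostly not recovered in that simulation of 10 arrays, in which 200 genes drawn from all were changed. It gives no rate for these 10 genes themselves.

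**Figure D1:**
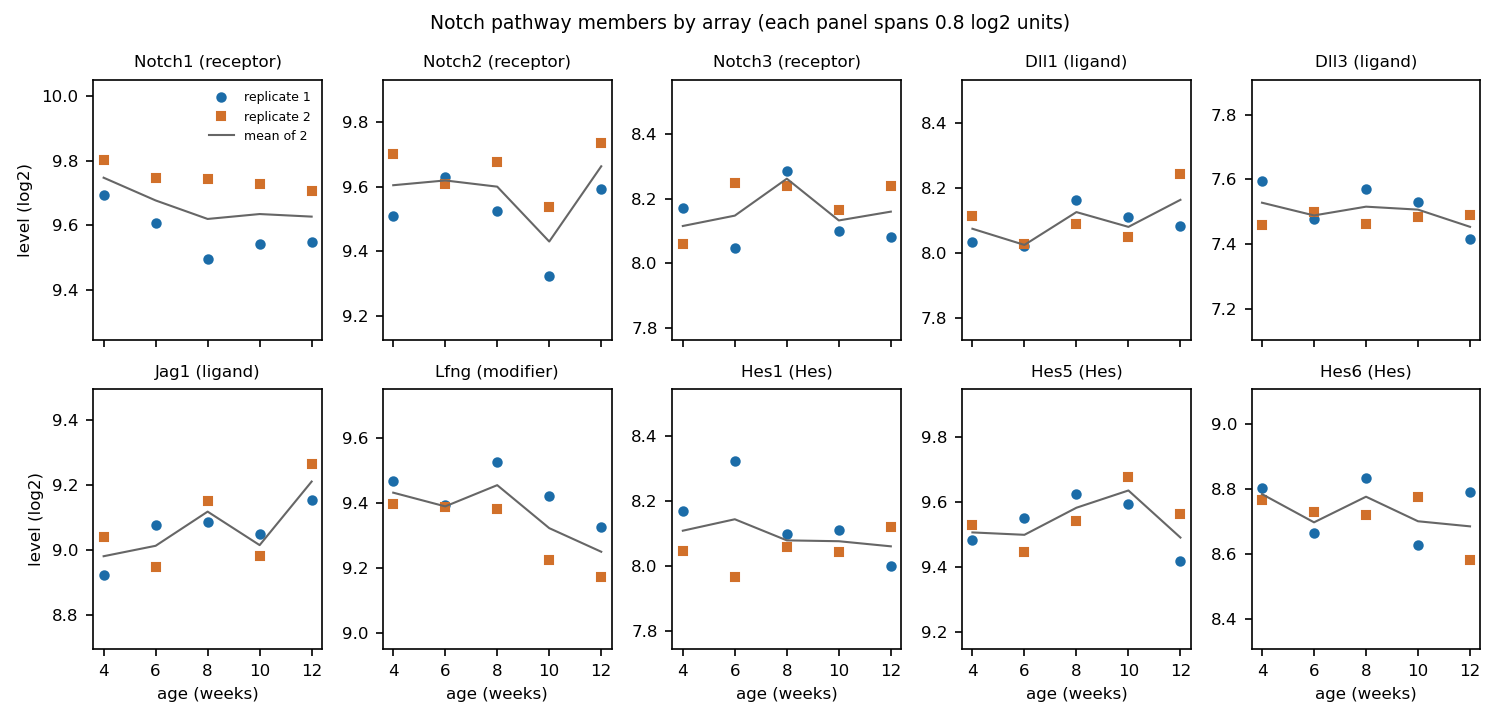
Level (log2) of each of the 10 genes against age in weeks; circles are replicate 1, squares replicate 2, and the line joins the means of the 2 arrays. Every panel spans 0.8 log2 units; the widest range over the 10 arrays is that of Notch2, 0.41, and in Notch1 the square lies above the circle at all 5 ages.

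Among the receptors, Notch1, the main receptor of neural stem cells (chromosome 2, 26457902 to 26503822), stood at 9.69 and 9.80 at 4 weeks, 9.61 and 9.75 at 6, 9.50 and 9.74 at 8, 9.54 and 9.73 at 10, and 9.55 and 9.71 at 12 weeks. The ages overlapped, and replicate 2 was above replicate 1 at all 5 ages, which held for 3.95% of genes. Its fitted change was −0.11 ± 0.09 (SE, adjusted p = 0.70 in limma), with an interval from −0.30 to 0.08. Most of its spread lay between the 2 arrays of an age, with an SD of 0.12 there against 0.05 between the age means.

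Notch2, a receptor of stem cells, glia and vessels (chromosome 3, 98013538 to 98150367), stood at 9.51 and 9.70 at 4 weeks, 9.63 and 9.61 at 6, 9.52 and 9.68 at 8, 9.32 and 9.54 at 10, and 9.59 and 9.73 at 12 weeks. The lowest array was at 10 weeks and the highest at 12 weeks. Its change over age was −0.03 ± 0.10 (SE, adjusted p = 0.95 in limma), and the step from 10 to 12 weeks was 0.23 ± 0.10 (unadjusted p = 0.049, adjusted p = 0.87 in limma). Without both 12-week arrays the fitted change, extrapolated to 8 weeks, was −0.22 (adjusted p = 0.53 in limma).

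Notch3, the receptor known from pericytes and arterial smooth muscle (chromosome 17, 32120820 to 32166896), stood at 8.17 and 8.06 at 4 weeks, 8.05 and 8.25 at 6, 8.28 and 8.24 at 8, 8.10 and 8.16 at 10, and 8.08 and 8.24 at 12 weeks. No age stood apart from the others, and the change was 0.03 ± 0.08 (SE, adjusted p = 0.94 in limma), with an interval from −0.15 to 0.21.

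The ligands Dll1 and Dll3 are expressed by committed progenitors and young neurons; Dll1 activates receptors on neighbours, and Dll3 acts within the cell that makes it. Dll1 (chromosome 17, 15367354 to 15376932) stood at 8.03 and 8.12 at 4 weeks, 8.02 and 8.03 at 6, 8.16 and 8.09 at 8, 8.11 and 8.05 at 10, and 8.08 and 8.24 at 12 weeks. The 12-week array of replicate 2 was the highest, and that of replicate 1 lay between the 4-week arrays. The change was 0.09 ± 0.06 (SE, adjusted p = 0.65 in limma), with an interval from −0.05 to 0.23.

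Dll3 (chromosome 7, 28293555 to 28301785) stood nearest to the dim reference, at 7.60 and 7.46 at 4 weeks, 7.48 and 7.50 at 6, 7.57 and 7.46 at 8, 7.53 and 7.48 at 10, and 7.42 and 7.49 at 12 weeks. Its range of 0.18 over the 10 arrays was the narrowest of the 10 genes. The change was −0.05 ± 0.06 (SE, adjusted p = 0.81 in limma), with an interval from −0.18 to 0.08.

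Jag1, a ligand of stem cell niches, astrocytes and vessel walls (chromosome 2, 137081451 to 137116520), stood at 8.92 and 9.04 at 4 weeks, 9.08 and 8.95 at 6, 9.09 and 9.15 at 8, 9.05 and 8.98 at 10, and 9.15 and 9.27 at 12 weeks. Both 12-week arrays were above both 4-week arrays, and 12 weeks replicate 2 was the highest of all. The change of 0.18 ± 0.08 (SE) had an interval from 0.02 to 0.35, an unadjusted p of 0.031 and an adjusted p of 0.36 in limma. Between 12 and 4 weeks the difference was 0.23 ± 0.08 (SE, unadjusted p = 0.017, adjusted p = 0.35 in limma), and the step from 10 to 12 weeks was 0.20 ± 0.08 (adjusted p = 0.87 in limma). Without both 12-week arrays the fitted change, extrapolated to 8 weeks, was 0.08 (adjusted p = 0.76 in limma).

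Vascular markers were also high on the array with the highest Jag1 level. The list mean of 7 endothelial genes averaged 8.67 at 4 weeks, 8.86 at 6, 8.80 at 8, 8.64 at 10 and 8.90 at 12 weeks, where the 2 arrays stood at 8.73 and 9.06. That of 8 mural cell genes (pericytes and smooth muscle) averaged 8.62, 8.81, 8.77, 8.67 and 8.84 at these ages, with 8.69 and 8.99 on the 12-week arrays. In both lists 12 weeks replicate 2 was the highest array, and the age means went up and down. The single genes were uneven, since Kdr, Pdgfrb, Rgs5, Vtn and Tagln had their highest value on another array. No gene of either list passed the trend. Positive changes were found in 4 of the 7 and 6 of the 8, against 10121 of all 19752 genes. At an unadjusted p under 0.05 in limma, 2 of the 7 and 3 of the 8 were higher, against 4.41% of all genes. The part of these vascular genes in the Jag1 values was not tested. In pieces of tissue, a change in the number of cells of a type and a change in RNA per cell cannot be told apart.

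Lfng encodes lunatic fringe, a glycosyltransferase that adds sugars to Notch receptors in the Golgi and alters which ligands activate them (chromosome 5, 140607341 to 140615545). It stood at 9.47 and 9.40 at 4 weeks, 9.39 and 9.39 at 6, 9.53 and 9.38 at 8, 9.42 and 9.22 at 10, and 9.33 and 9.17 at 12 weeks. Both 12-week arrays were below both 4-week arrays, and the highest value was on 8 weeks replicate 1, the array with the narrowest distribution. Replicate 1 was above replicate 2 at all 5 ages; Lfng and Notch1 were the 2 of 10 members with the same replicate number higher at every age, which held for 7.7% of all genes. The change was −0.17 ± 0.08 (SE, unadjusted p = 0.051, adjusted p = 0.43 in limma), with an interval from −0.35 to 0.00. Jag1 and Lfng were the 2 of the 10 genes whose 12-week and 4-week arrays did not overlap, which held for 43.7% of all genes; 1 of the 10 lay above at 12 weeks, against 21.6% of all genes, and 1 below, against 22.2%.

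Among the transcriptional targets, Hes1, a repressor that holds progenitors undifferentiated (chromosome 16, 30065357 to 30067796), stood at 8.17 and 8.05 at 4 weeks, 8.32 and 7.97 at 6, 8.10 and 8.06 at 8, 8.11 and 8.04 at 10, and 8.00 and 8.12 at 12 weeks. The highest and the lowest value of the series were those of the 2 arrays at 6 weeks. The high one was 6 weeks replicate 1, where the mean of 5 choroid plexus genes was 9.94 against 7.70 on the lowest array; the part of these genes in it was not tested. The change was −0.07 ± 0.09 (SE, adjusted p = 0.85 in limma), and −0.02 without that array.

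Hes5, the Hes gene most closely tied to Notch activity in neural stem cells (chromosome 4, 154960626 to 154962372), stood at 9.48 and 9.53 at 4 weeks, 9.55 and 9.45 at 6, 9.62 and 9.54 at 8, 9.59 and 9.68 at 10, and 9.42 and 9.56 at 12 weeks. The means were 9.50 at 6 weeks, 9.63 at 10 weeks and 9.49 at 12 weeks, with an SD of 0.07 between arrays of the same age. The change over age was 0.04 ± 0.08 (SE, adjusted p = 0.90 in limma), with an interval from −0.12 to 0.21. Without the 12-week arrays the fitted change, extrapolated to 8 weeks, was 0.19 (adjusted p = 0.44 in limma). The mean at 4 weeks was 9.51, against 9.63 at 10 weeks.

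Hes6 (chromosome 1, 91411483 to 91414038) stood at 8.80 and 8.76 at 4 weeks, 8.66 and 8.73 at 6, 8.83 and 8.72 at 8, 8.63 and 8.77 at 10, and 8.79 and 8.58 at 12 weeks. The lowest value was on 12 weeks replicate 2, while 12 weeks replicate 1 lay between the 4-week arrays, and the change was −0.08 ± 0.07 (SE, adjusted p = 0.77 in limma), with an interval from −0.24 to 0.08.

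**Figure D2:**
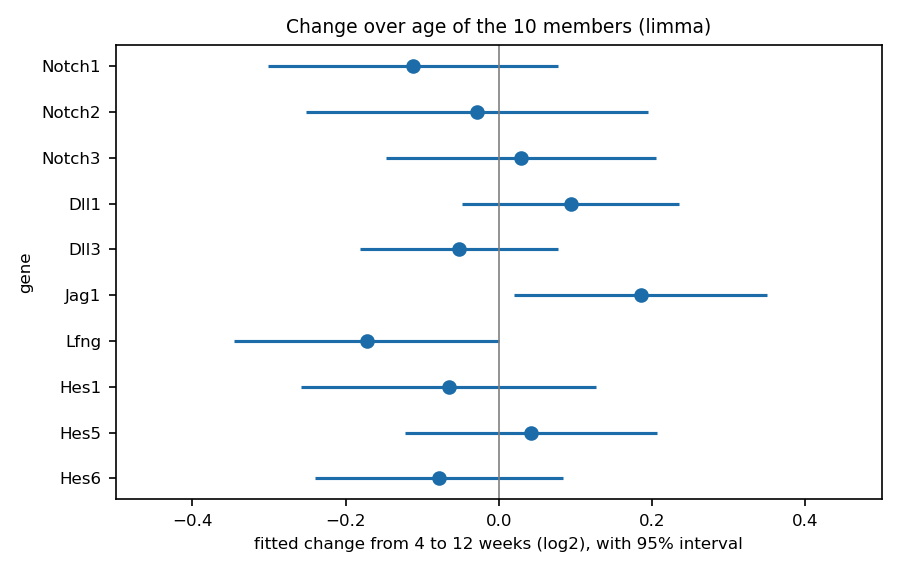
Fitted log2 change from 4 to 12 weeks of each gene (points) with its 95% confidence interval from limma (lines). The Jag1 interval, 0.02 to 0.35, lies above 0 before adjustment over all genes, and the other 9 include 0.

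Age as a factor, which also picks up changes that are not linear, called 0 of the 10 genes in limma's F-test (0.167% of all genes passed), and 0 of the 10 had an unadjusted p under 0.05 (8.46% of all genes). The comparison of 12 with 4 weeks called 0 of the 10 (0.516% of all genes), and 1, Jag1, had an unadjusted p under 0.05 (9.57% of all genes). No gene of the whole table passed any of the 4 successive steps in limma. At an unadjusted p under 0.05, the steps held 0 of the 10 members from 4 to 6 weeks (4.13% of all genes), 0 from 6 to 8 weeks (6.25%), 0 from 8 to 10 weeks (4.79%) and 2, Notch2 and Jag1, from 10 to 12 weeks (5.59%).

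Whether members of the same role moved apart was tested by the slope of their difference over age, with an exact permutation test over the 113400 distinct orders of the arrays, two-sided, in 9 pairs. No pair passed after adjustment over the 9. Among the ligands the slopes of Dll3 and Jag1 differed by −0.24 log2 units over the series (Dll3 minus Jag1, exact p = 0.046, adjusted p = 0.22), and those of Dll1 and Dll3 by 0.15 (Dll1 minus Dll3, exact p = 0.0495, adjusted p = 0.22). Among the receptors the largest difference was −0.14, Notch1 minus Notch3 (exact p = 0.26, adjusted p = 0.48). Among the Hes genes it was 0.12, Hes5 minus Hes6 (exact p = 0.28, adjusted p = 0.48). Single arrays bear on this: without 4 weeks replicate 2 the pair of Dll1 and Dll3 passed (0.22, adjusted p = 0.017), and without 12 weeks replicate 1 that of Hes5 and Hes6 (0.26, adjusted p = 0.046).

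The wider pathway was followed through 83 genes in 11 roles, of which 79 were measured and 10 are the members. In limma's trend 0 rose and 1 fell, Tle3, against 0.147% of all genes that rose and 0.673% that fell. At an unadjusted p under 0.05 there were 14, 3 higher (4.41% of all genes) and 11 lower (7.28%). The median change was 0.00, as over all genes. The other 4 listed genes were not analysed here.

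Tle3 encodes a Groucho-type corepressor, a protein that Hes factors recruit to shut genes off. It stood at 9.70 and 9.64 at 4 weeks, 9.35 and 9.43 at 6, 9.31 and 9.28 at 8, 9.27 and 9.22 at 10, and 9.19 and 9.12 at 12 weeks. Both 4-week arrays were above all 8 others, and both 12-week arrays were below all others. Its change was −0.47 ± 0.07 (SE, adjusted p = 0.011 in limma). It was also the gene of the pathway past limma's comparison of 12 with 4 weeks (−0.51 ± 0.07, adjusted p = 0.016). In limma's F-test over ages it did not pass (adjusted p = 0.12). The trend call was lost when either 4-week array was left out, with a change of −0.40 (adjusted p = 0.068) for replicate 1 and −0.44 (adjusted p = 0.063) for replicate 2. It was also lost without both 12-week arrays (−0.55 when extrapolated to 8 weeks, adjusted p = 0.076 in limma).

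The related corepressor genes had other values: Tle1 had a change of 0.17 ± 0.07, Tle2 of −0.03 ± 0.08 and Tle4 of 0.02 ± 0.06, and none passed. Among 9 corepressor genes measured, Spen, whose product silences Notch targets together with RBPJ, had the highest value, 0.23 ± 0.09 (adjusted p = 0.33 in limma).

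Among the 6 genes that put sugars on Notch receptors the median was −0.11 and 0 passed. Rfng, radical fringe, a relative of Lfng, came nearest, with 10.08 and 9.92 at 4 weeks and 9.78 and 9.64 at 12 weeks, a change of −0.31 ± 0.07 (SE, adjusted p = 0.081 in limma). Its call depends on the settings, since it passed in 3 of the alternatives. The third fringe gene, Mfng, had a change of 0.01 ± 0.06.

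The other roles held no gene past the trend. Of the 4 receptors measured, including Notch4 (0.11 ± 0.07), the largest absolute change was that of Notch1, and of the 5 canonical ligands, with Dll4 (0.07 ± 0.08) and Jag2 (0.01 ± 0.07), that of Jag1. Among 7 other ligands the largest was that of Cntn6, a contactin (−0.37 ± 0.16, adjusted p = 0.36 in limma), which was above the dim reference on 9 of 10 arrays. Among 6 genes of ligand endocytosis it was Neurl1b, a neuralized ubiquitin ligase (0.15 ± 0.11, adjusted p = 0.67), and among 8 genes of receptor cleavage Adam17, the protease gene (−0.20 ± 0.13, adjusted p = 0.63).

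Inside the cell, Nrarp, a Notch target that feeds back to restrain the pathway, had the largest change of the 10 genes of turnover and inhibition (−0.21 ± 0.08, adjusted p = 0.29 in limma). Rbpj itself had a change of 0.05 ± 0.07, and the largest of the 9 genes of the nuclear complex was that of Kat2b, an acetyltransferase (−0.09 ± 0.07, adjusted p = 0.70). Of the 9 Hes and Hey genes 4 had positive and 5 negative changes. The largest was that of Hes3 (0.11 ± 0.08, adjusted p = 0.69 in limma). Its mean of 7.20 was close to the dim reference, though above it on all 10 arrays. Hey1, a related repressor gene, stood between 10.82 and 11.02 on all arrays (−0.06 ± 0.06).

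Proneural genes, which Hes factors repress, were measured for 6 of 7 listed. Neurod4 had the largest change (−0.53 ± 0.19, adjusted p = 0.28 in limma) but lay below the dim reference on all 10 arrays. Neurod1, also expressed in mature granule cells, stood at 11.19 and 11.16 at 4 weeks and 10.90 and 10.62 at 12 weeks (−0.41 ± 0.12, adjusted p = 0.19), and Neurog2 had a change of −0.23 ± 0.12 (adjusted p = 0.47). The other 3 had positive changes: Neurog1 0.13 ± 0.11, Neurog3 0.12 ± 0.07 and Atoh1 0.19 ± 0.11. Neurog3 lay below the dim reference on all 10 arrays, and Atoh1 was above it on 4. Neurog1, with a mean of 7.17, was close to the reference, though above it on all 10 arrays. The median of the 6 was −0.06, and none of the 6 passed.

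**Figure D3:**
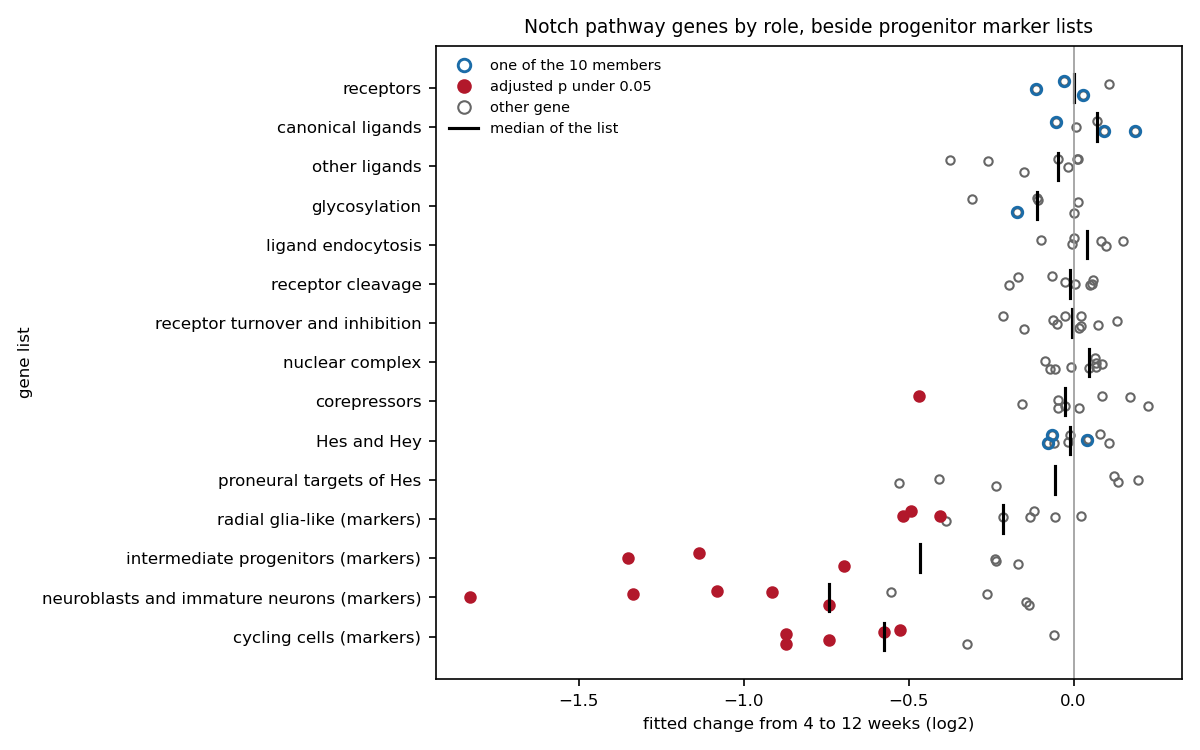
Fitted log2 change from 4 to 12 weeks of each measured gene of the pathway, in rows by role, and of 4 progenitor marker lists; points are genes, blue rings the 10 members, filled red points genes at an adjusted p under 0.05 in limma, and black bars list medians. Tle3 is the pathway gene past the threshold, and the marker lists have medians from −0.74 to −0.21.

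Marker lists of the cells in which the pathway is best known in this tissue each held genes that fell in the trend, beside 0.673% of all genes that did. The lists were chosen with earlier results of these data known, so these counts are a description and no test. Of 9 radial glia-like genes 3 fell in the trend, among them Nes, the stem cell filament nestin (−0.52 ± 0.08), with a median of −0.21. Of 6 intermediate progenitor genes 3 fell, among them Eomes, the factor Tbr2 (−1.14 ± 0.10), with a median of −0.47. Of 9 genes of neuroblasts 5 fell (median −0.74), and of 7 genes of dividing cells 5 fell (median −0.58).

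The members known from these cells can be set beside the lists, as values with no test, since the lists hold genes already known to fall on these arrays. Among the intermediate progenitor genes the values were uneven: Igfbpl1 (−1.35), Eomes (−1.14) and Sstr2 (−0.69) passed, while Insm1 (−0.24), Neurog2 (−0.23) and Mfap4 (−0.17) did not. Dll1, Dll3 and Hes6, which are known from committed progenitors, had changes of 0.09, −0.05 and −0.08.

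The radial glia-like genes were uneven too. Nes (−0.52), Lpar1 (−0.49) and Id3 (−0.40) passed, while Fabp7 (−0.39), Hopx (−0.21), Sox2 (−0.13), Gfap (−0.12), Id4 (−0.06) and Aldoc (0.02) did not. Notch1, Hes1 and Hes5, known from these stem cells, had changes of −0.11, −0.07 and 0.04.

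Members that are expressed in other cells can be read beside those cells' markers. The mean of 8 astrocyte genes lay between 11.06 and 11.20 on all arrays, and 0 of the 8 passed. Of 6 oligodendrocyte precursor genes 3 fell (median −0.24), with list means of 9.47 and 9.50 at 4 weeks and 9.13 and 9.18 at 12 weeks. This list was uneven: Olig1 (−0.32), Olig2 (−0.50) and Gpr17 (−0.77) passed, while Pdgfra (−0.16), Cspg4 (−0.14) and Sox10 (−0.09) did not. Of 5 genes of myelinating oligodendrocytes 4 fell (median −0.66), with list means averaging 11.16 at 4 weeks and 10.60 at 12 weeks. The part of these lists in the members' values was not tested.

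The genes most like the 3 members of smallest p, by Pearson correlation over the 10 arrays among 14333 genes above the dim reference, are given as a description; with so many genes and 10 arrays high values arise readily. For Jag1 they were 6430548M08Rik (r = 0.98), Erich3 (0.95) and Thsd7a (0.92). For Lfng they were Necab2 (0.94), Eri3 (0.94) and Ube2d1 (0.93). For Dll1 they were Slc17a7, a vesicular glutamate transporter gene (0.90), Fam221a (0.89) and Rwdd4a (0.89). None of these 9 genes passed the trend.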

How the data were processed

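The deposited values are per probe set and are taken as log2 expression, because they run from 2.50 to 15.0 with like quartiles on every array. Log base, software and normalization are not given in the sources used here. The build was mm10, per the submitters' processing notes. Of 25254 probe sets the annotation gave 1 gene for 21496, several for 1565 and none for 2193; only the first were used, and for the 938 genes with several probe sets the one with the highest mean was kept, which left 19752 genes with no filter. Ages and replicate numbers come from the sample titles.

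limma 3.58.1 in R 4.3.3 fitted all 10 arrays, with age either numeric (8 residual degrees of freedom) or as a factor (5), default eBayes, two-sided, with Benjamini-Hochberg adjustment over all genes at 0.05. The number of arrays limits the precision. Age slopes of differences used exact permutation in Python 3.11.15. Both were tested on simulated data. The members and lists were chosen with earlier results of these data known. Named are all members, pathway genes past the trend, the largest absolute change of each role, and the 3 genes most like each of 3 members; other genes were named after their values were seen. Alternatives were the replicate block, array weights, quantile normalization, means over probe sets, a filter on the dimmest 30% of genes, median centring, log2 of age, eBayes with trended and robust variances, and leaving out arrays.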

Additional observations from a re-analysis of the deposited data

How the results depend on the processing

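No member passed the trend in any of the 20 alternatives (lowest adjusted p = 0.18, for Jag1), and the counts of members past the F-test, 12 versus 4 weeks and the steps were 0 in each alternative run. Of 200 member values 195 kept their sign, but small changes moved in size: Notch1 ran from −0.17 to −0.065, Dll1 from 0.034 to 0.13, Dll3 from −0.089 to −0.012, Jag1 from 0.083 to 0.22, Lfng from −0.21 to −0.11, Hes1 from −0.11 to −0.015, Hes5 from 0.013 to 0.19 and Hes6 from −0.14 to −0.016. The changes of sign were in Notch2, at 0.010 with quantile normalization and between −0.12 and 0.031 over the fits that leave out 1 array, and Notch3, between −0.022 and 0.085 over those fits. The wider pathway held 2 genes, Tle3 and Rfng, without the dimmest 30% of genes, with trended and robust variances and with array weights, 0 without the 12-week arrays, and 0 to 1 when 1 array was left out. The count of pairs whose slopes differ was 0 to 1 when 1 array was left out. With the replicate block the members past the trend were again 0 of 10; the Lfng change kept its value of −0.17, with an unadjusted p of 0.025 (adjusted p = 0.31). Arrays share only a number: correlations between ages of the difference of replicates 2 and 1 ran from −0.34 to 0.16. The fit without 6 weeks replicate 1 and 8 weeks replicate 1 was chosen after seeing the data. Changes from the fit without the 12-week arrays are extrapolated to 8 weeks.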
